A study of Homo sapiens with 12 samples.

Results

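The 500 Panc327 clusters described here are the places where H3K27ac peaks called in both libraries of this pancreatic cancer line covered the most bases over a run of neighbouring pieces. They were found from the peak positions of its 2 libraries. Bases called in both libraries were kept on chromosomes 1 to 22 and X, the resulting pieces were joined wherever they lay at most 12.5 kb apart, and the joined clusters were ranked by the bases their pieces covered. Panc327 had 14254 such clusters, and the first 500 (3.51% of them) are the members. The members were thus chosen by measured values, the bases called in Panc327, and their numbers of pieces, widths and ranks are a description. The clusters resemble super-enhancers in the way they are joined, but no read signal was ranked, and pieces at gene starts were kept.

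Panc327, BxPC3 and SUIT2 are human pancreatic ductal adenocarcinoma lines. The labels give them no treatment and standard culture conditions, and each has 2 H3K27ac libraries and 2 input libraries. The files used here are the 6 H3K27ac peak lists, so there were 2 Panc327, 2 BxPC3 and 2 SUIT2 libraries and no treated group. No label says whether the 2 libraries of a line came from separate cultures, and any spread between them may be technical. Each line is 1 cell line, so a difference between lines is a difference between these lines only.

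H3K27ac is acetylation of lysine on the tail of histone H3, placed by the coactivators p300 and CBP at active promoters and enhancers and removed by histone deacetylases. Wide runs of marked elements, often called super-enhancers, tend to lie at genes that define a cell's identity and at genes that are transcribed strongly in most cells. In pancreatic ductal tumours such runs have been described at epithelial transcription factors, keratins and genes of the squamous or basal-like programme. The question asked of each Panc327 cluster was which locus it marks, how it is built, and how many of its bases the other lines also mark.

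Gene names were attached from well-known gene starts on hg19, written by hand to the nearest 1 kb after the clusters were seen and not taken from an annotation. A cluster carries a name when such a start lies within 3 kb of its span, so a name says where a cluster is and not which gene it acts on. In all, 93 of the 500 clusters carry 158 gene names. The RefSeq table of the GRCh38.p14 build places each of the 158 genes on the same chromosome, and 136 of 139 neighbouring pairs stood in the same order in it. Clusters without a name are given by position only.

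Promoters of genes at 4 clusters are shown because they stand at the ends of the range reported here. NKX2-2 lies in the cluster that no BxPC3 or SUIT2 library marked. PER1 and DDIT4 lie in the clusters with the most covered bases. HSPA1A lies in one of the clusters that both other lines covered almost in full. Sequences are RefSeq's for GRCh38.p14, 5′ to 3′ on the gene's strand, from 250 bases before to 50 bases after the start, and no coordinates were carried between builds. Capitals mark matches on either strand. The motifs searched were the GC box with the letters GGGCGG, the CCAAT box with its own 5 letters, the box known by the letters TATAAA, the cyclic AMP element with TGACGTCA, the site of AP-1 with TGANTCA, the heat shock element with GAANNTTC, the ATF4 element called CARE with TGATGCAA and the E-box with CACGTG.
NKX2-2: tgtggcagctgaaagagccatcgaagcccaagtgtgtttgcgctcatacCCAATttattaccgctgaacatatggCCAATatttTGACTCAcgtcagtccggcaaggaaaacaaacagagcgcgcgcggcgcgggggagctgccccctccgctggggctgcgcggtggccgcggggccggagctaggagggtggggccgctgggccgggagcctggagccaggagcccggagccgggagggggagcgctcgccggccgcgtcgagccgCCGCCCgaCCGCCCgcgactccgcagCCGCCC
PER1: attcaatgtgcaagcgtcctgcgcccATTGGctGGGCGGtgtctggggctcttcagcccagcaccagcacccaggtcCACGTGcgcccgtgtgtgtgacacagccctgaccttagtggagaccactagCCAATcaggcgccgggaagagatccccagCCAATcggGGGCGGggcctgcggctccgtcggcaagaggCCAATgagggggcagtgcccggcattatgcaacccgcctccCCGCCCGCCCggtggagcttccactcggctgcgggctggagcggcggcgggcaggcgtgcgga
DDIT4: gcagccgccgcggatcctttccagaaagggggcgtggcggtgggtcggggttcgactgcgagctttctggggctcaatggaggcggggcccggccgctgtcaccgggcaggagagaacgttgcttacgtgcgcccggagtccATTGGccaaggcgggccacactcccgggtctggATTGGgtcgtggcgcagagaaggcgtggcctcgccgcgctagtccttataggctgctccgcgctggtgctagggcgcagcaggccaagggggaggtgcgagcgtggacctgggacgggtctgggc
HSPA1A: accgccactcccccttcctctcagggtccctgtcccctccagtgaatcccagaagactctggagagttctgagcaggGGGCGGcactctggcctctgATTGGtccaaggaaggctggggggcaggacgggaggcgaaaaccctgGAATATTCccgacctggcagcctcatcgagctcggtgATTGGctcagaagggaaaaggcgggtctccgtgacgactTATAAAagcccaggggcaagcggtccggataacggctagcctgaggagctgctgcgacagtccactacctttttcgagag

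The NKX2-2 promoter held 3 GC boxes, 2 CCAAT boxes and 1 AP-1 match. PER1 held 4 GC boxes, 4 CCAAT boxes and 1 E-box, with some of its GC boxes overlapping. DDIT4 held 2 CCAAT boxes and no other match. HSPA1A held 1 GC box, 2 CCAAT boxes, 1 TATA box and 1 heat shock element, the site bound by heat shock factor. Among 27305 RefSeq promoters of the same length, 44.6% held a GC box, 35.7% a CCAAT box, 12% a TATA box, 1.98% a cyclic AMP element, 7.76% an AP-1 match, 6.87% a heat shock element, 0.923% the ATF4 element and 7.43% an E-box. A match is only these letters in this window. RefSeq promoter sequences were found for 117 of the 158 named genes.

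Among the named clusters, 3 carry the name of a microRNA gene or of its host gene, 1 of them unmarked in SUIT2. No cluster, named or not, was searched for further microRNAs. The mature RNAs of these 3 loci are shown with the seed, bases 2 to 8, in capitals. The seed is the stretch that pairs with target messages. The 3 seeds differ from one another.
hsa-miR-205-5p: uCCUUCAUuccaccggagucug
hsa-miR-21-5p: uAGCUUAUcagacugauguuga
hsa-miR-181c-5p: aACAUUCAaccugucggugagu
miR-205 is a microRNA of stratified and squamous epithelia, and miR-21 is raised in many carcinomas.

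The members held 5.40 Mb of the 27.4 Mb that both Panc327 libraries called, or 19.7%. They covered between 6.62 and 36.6 kb each, with a median of 9.11 kb, over spans of 7.79 to 119 kb with a median of 30.1 kb. The remaining Panc327 clusters covered a median of 1331 bases, and 10006 of them (72.7%) were a single piece. At the threshold, ranks 496 to 500 covered 6627, 6623, 6618, 6615 and 6615 bases, and ranks 501 to 505 covered 6604, 6600, 6595, 6584 and 6581. The last clusters kept and the first ones left out were thus nearly equal in size.

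**Figure D1:**
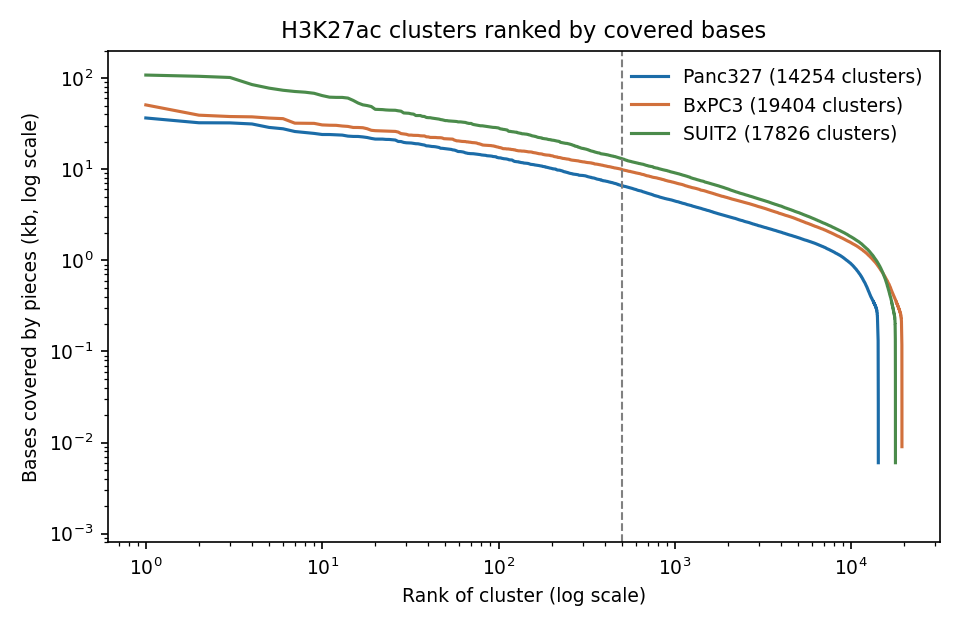
Bases covered by the pieces of each cluster (kb, log scale) against its rank (log scale) in Panc327, BxPC3 and SUIT2, 1 line per cell line. The dashed line marks rank 500, where the Panc327 curve stands at 6.62 kb, below BxPC3 at 9.97 kb and SUIT2 at 13.1 kb.

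Most members were chains of several modest peaks, not one wide block. The 3280 pieces had a median width of 1309.5 bp, a cluster had 1 to 26 pieces with a median of 6, and 77 clusters had 10 or more. The pieces filled 31.9% of the summed spans. The widest piece of a cluster had a median of 3482.5 bp. It held at least 50% of the covered bases in 104 clusters, and it reached 5 kb in 97.

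Only 3 members were a single piece. One lies at TNRC18 (chr7:5458023-5470691, 12.7 kb), the widest piece of all. The others lie at NEAT1 (chr11:65183653-65192604, 8.95 kb), a nuclear long noncoding RNA that builds paraspeckles, and FAM83H (chr8:144814833-144822976, 8.14 kb), a gene linked to keratin organisation. The TNRC18 piece was almost fully called in both other lines, at 94.0% of its bases in BxPC3 and 100% in SUIT2. The FAM83H piece was called over 99.7% of its bases in BxPC3 and over 21.1% in SUIT2.

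Both Panc327 libraries stood behind each piece by construction, but they differed outside the pieces. Replicate 1 listed 27776 peaks over 34.1 Mb and replicate 2 listed 29139 over 46.3 Mb. Within the member spans replicate 1 called 6.22 Mb and replicate 2 called 6.50 Mb, of which 0.818 Mb and 1.1 Mb were in that library alone. The authors' fold at the strongest peak of a cluster had a median of 119 in replicate 1 and 27 in replicate 2, and it was higher in replicate 1 in all 500 clusters. Summits were compared at the peak with the highest authors' −log10 q in each library, which need not be the peak with the highest fold. These summits lay within 200 bp of each other in 228 clusters and over 10 kb apart in 96. At SFN these summits lay 2 bp apart, at the HOXA cluster 5 bp and at FGFR3 10 bp, while at DDIT4 they lay 22670 bp apart.

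The highest authors' fold of a member in replicate 1 stood in an unnamed cluster on chromosome 19 (chr19:39321408-39376720, rank 43). It was 284 in replicate 1, with 44.2 in replicate 2. The Panc327 local background in that cluster was 4.24 and 4.70 times its genome-wide value, and its part in the fold was not tested. Here and below, the lowest background solved at any peak of a library stands for its genome-wide value. On that scale the median over all peaks was 1.26 in replicate 1 and 1.34 in replicate 2. CDKN1B, the gene of the cell cycle inhibitor p27, had folds of 274 and 41.4 in replicates 1 and 2. In replicate 2 the highest fold of a member was 48.7 and stood in the cluster at chr17:79772907-79800650 (rank 262). At the low end, the highest fold within a member was 28.5 in replicate 1 and 10.8 in replicate 2.

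A single library gave a partly different list. Of the members, 434 (86.8%) shared span with the top 500 clusters built from replicate 1 alone, and 330 (66.0%) with those built from replicate 2 alone. At MIR21 the libraries divided the span differently. Replicate 1 called 7.93 kb there in 11 peaks and replicate 2 called 19.1 kb in 3 peaks, so the pieces follow the narrower calls of replicate 1.

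The cluster with the most covered bases lay on the short arm of chromosome 17 (chr17:8009258-8128331, rank 1, 36.6 kb in 26 pieces). It holds the starts of PER1, a repressor of the circadian clock, AURKB, the Aurora kinase of the chromosomal passenger complex, VAMP2, a vesicle fusion protein, and HES7, ALOXE3, TMEM107 and CTC1. Panc327 replicates called 39.2 and 54.4 kb of this span, BxPC3 replicates 27.5 and 31.1 kb, and SUIT2 replicates 30.6 and 32.5 kb. Of the piece bases, which the ranking chose in Panc327, 58.1% were called in both BxPC3 libraries and 62.1% in both SUIT2 libraries.

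Rank 2 was the cluster at DDIT4 (chr10:74002984-74092764, 32.4 kb in 17 pieces). DDIT4 encodes REDD1, an inhibitor of mTORC1 that is induced by hypoxia and by the integrated stress response. The libraries called 34.4 and 39.9 kb in Panc327, 28.3 and 29.9 kb in BxPC3, and 31.1 and 36.0 kb in SUIT2. SUIT2 replicate 2 lay between the Panc327 libraries. The first 6 of the 17 pieces had no base called in both BxPC3 libraries, and 5 of these 6 were called at least in part in SUIT2. The last piece, 2383 bp wide, was called over 2032 bases in BxPC3 and over none in SUIT2. The piece with the 4697 bp width near the middle was called almost in full in both.

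**Figure D2:**
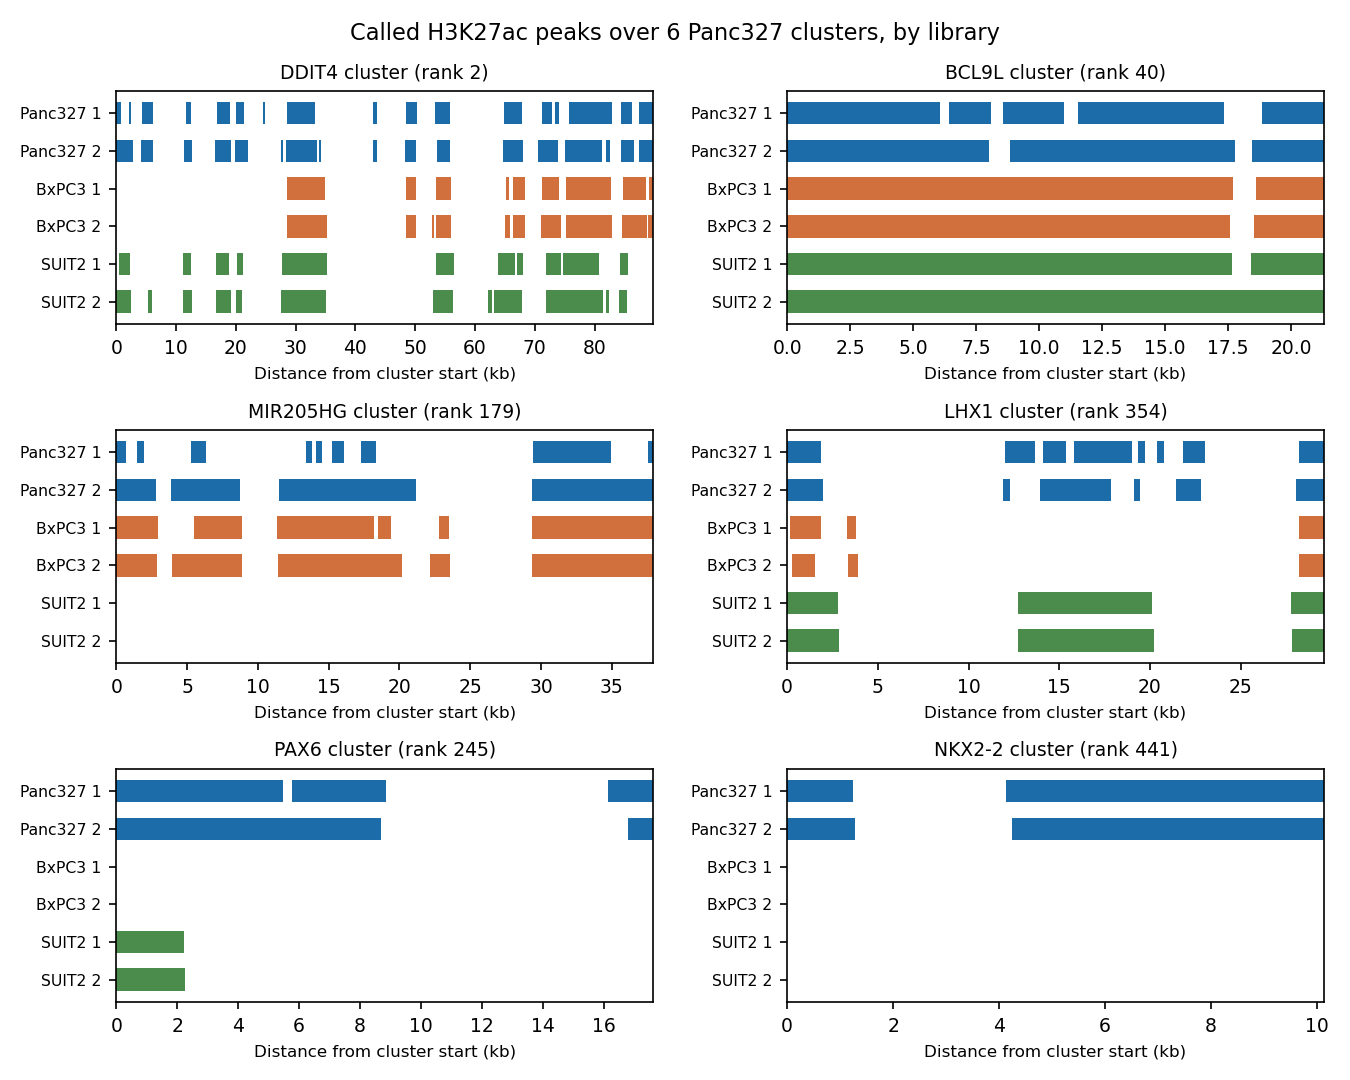
Bases called as H3K27ac peaks in each library (bars) along 6 Panc327 clusters, by distance from the cluster's first base (kb); Panc327 libraries are on top, then BxPC3, then SUIT2. The BCL9L cluster is called in all 6 libraries, MIR205HG in Panc327 and BxPC3, LHX1 mostly in Panc327 and SUIT2, PAX6 in Panc327 and over 2.24 and 2.25 kb in SUIT2, and NKX2-2 in Panc327 alone.

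Ranks 3 to 20 included the following named loci. Rank 3 (chr16:3004973-3116594, 32.3 kb) holds CLDN6 and CLDN9, which encode tight junction claudins, TNFRSF12A, the receptor of the cytokine TWEAK, and IL32. Rank 4 (chr19:39125439-39201817, 31.4 kb) holds ACTN4, an actin crosslinking protein. Rank 7 holds MYH9, a nonmuscle myosin, rank 8 PIM3, a serine/threonine kinase, and rank 6 PLXNB2, a semaphorin receptor. Rank 9 holds FOSB, an AP-1 subunit, and rank 10 SOCS3, which inhibits JAK and STAT signalling. The coverage of these 20 clusters by both BxPC3 libraries ran from 23.6% at CSNK1D and SECTM1 (rank 15) to 89.3% at FOSB. Coverage by both SUIT2 libraries ran from 15.6% at FXYD3 (rank 20), a regulator of the sodium pump, to 89.3% at ACTN4.

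Immediate early and stress response genes were among the named members. JUNB, another AP-1 subunit, lies at rank 28, with 20.9 and 23.1 kb called in Panc327, 22 and 22.8 kb in BxPC3 and 21.7 and 21.8 kb in SUIT2. All 6 libraries called similar lengths there. The FOSB cluster had 26.7 and 30.9 kb in Panc327, 27.4 and 29.0 kb in BxPC3, but 15.3 and 16.6 kb in SUIT2. BHLHE40, a hypoxia and clock-related repressor, lies at rank 63, and IER2 at rank 103, ID1, an inhibitor of helix-loop-helix factors, at rank 47, and ADM, the hypoxia-induced peptide adrenomedullin, at rank 363. Each of these 4 had at least 84.2% of its piece bases called in both libraries of each other line. SIK1, a kinase of the AMPK family, differed. Its cluster (rank 34) had 39.9% of piece bases called in BxPC3 and 15.7% in SUIT2.

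Chaperone loci were split. The cluster at HSPA1A and HSPA1B (rank 108), which encode inducible Hsp70, had 98.2% of its bases called in BxPC3 and 100% in SUIT2. The pair are near-identical copies, and how the authors' alignment divided reads between them is not given in the sources used here, so peak height there is uncertain. At HSP90AB1 (rank 51), a cytosolic Hsp90, 45.3% of the bases were called in BxPC3 and 60.8% in SUIT2. SDF2L1, an endoplasmic reticulum protein of the unfolded protein response, lies at rank 415 and was called over 39.8% in BxPC3 and 95.6% in SUIT2. SLC7A5, an amino acid transporter whose gene is a target of ATF4, lies at rank 142, with 77.1% in BxPC3 and 94.4% in SUIT2.

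The member clusters were covered less completely by the other lines than Panc327 clusters in general, although few were missed altogether. Of the bases in member pieces, 68.8% were called in both BxPC3 libraries, against 74.7% in the pieces of the remaining Panc327 clusters. In both SUIT2 libraries 58.7% were called, against 71.4% in the remaining clusters. Both lines called 52.7% of member bases, against 65.1%, and 21.5% of member bases were called in no library of either line, against 16.5%. The size of these differences is a description, because the members share their libraries with the clusters they are set against.

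By cluster, a median of 72.9% of piece bases was called in BxPC3, with quartiles at 57.5 and 87.3%, and 63.3% in SUIT2, with quartiles at 40.3 and 82.4%. At least 50% was called in BxPC3 in 412 members (82.4%), where 75.3% of all Panc327 clusters reached that level. At least 50% was called in SUIT2 in 328 members (65.6%), where 69.7% of all clusters did. Both lines reached it in 307 members (61.4%), against 64% of all clusters. The shares of clusters at the 50% level thus lie near or a few points from the background. The ends of the range held fewer members. No base was called by both BxPC3 libraries in 5 members (1%), against 17.5% of all clusters, and no base by both SUIT2 libraries in 23 (4.6%), against 23.3%. Coverage of 100% by BxPC3 was seen in 13 members (2.6%), against 36.4% of all clusters. A cluster of 1 piece can be hit or missed whole, whereas a chain of pieces is scored over many, and the 2 kinds of cluster are not equal in this respect.

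**Figure D3:**
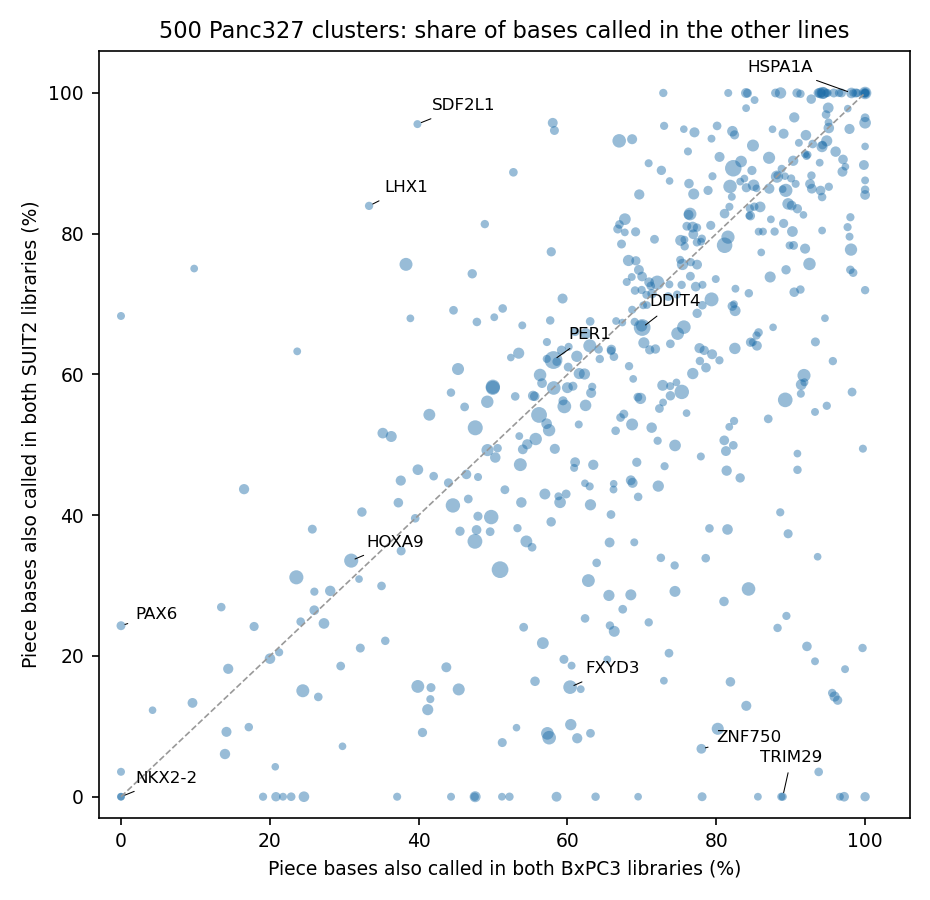
Each point is 1 of the 500 Panc327 clusters, placed by the percent of its piece bases called in both BxPC3 libraries (horizontal) and in both SUIT2 libraries (vertical); point area follows covered bases, and the dashed line marks equal shares. More points lie below the line (313) than above it (178), with a run of 23 points on the bottom edge at 0% in SUIT2.

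Between the other lines, BxPC3 covered more of the member clusters than SUIT2. The share of bases called was higher for BxPC3 in 313 members (62.6%), against 27.5% of all Panc327 clusters. It was higher for SUIT2 in 178 members (35.6%), against 29.8% of all clusters, and equal in 9 members. Ties were far more frequent over all clusters, which lowers both of the shares given for them. Of all clusters, 27.6% had 100% in both lines and 13.4% had 0% in both, against 1% and 0.4% of members. By library, 69.8 and 72.3% of member bases were called in BxPC3 replicates 1 and 2, and 59.7 and 60.6% in SUIT2 replicates 1 and 2. The groups did not overlap. Nor did they over the bases of all Panc327 clusters, at 74.4 and 76.5% in BxPC3 and 69.7 and 70.4% in SUIT2. Over member bases the means were 71.1 ± 1.78% in BxPC3 and 60.1 ± 0.669% in SUIT2 (SD, n = 2 each), a difference of 10.9 points. A two-sided exact permutation test over the 6 ways of splitting the 4 libraries gave p = 0.333, the smallest it can give. SUIT2 libraries called more of the genome, 60.1 and 63.3 Mb, than BxPC3 libraries, 48.7 and 54.6 Mb. They listed fewer peaks, 29983 and 31421, against 34113 and 38335 in BxPC3. The part of peak number or width in the difference was not tested.

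Within the members, the rank of a cluster made little difference to this order. Ranks 1 to 100 had 66.7% of bases called in BxPC3 and 57.8% in SUIT2, and ranks 401 to 500 had 71.4% in BxPC3 and 61.0% in SUIT2. Outside the members, ranks 2001 to 5000 had 78.3% in BxPC3 and 75.8% in SUIT2, a narrower gap. By cluster median the order there was the reverse, at 90.6% in BxPC3 and 92.8% in SUIT2. It was also the reverse at ranks 5001 to 14254, with medians of 94.4% in BxPC3 and 96.3% in SUIT2.

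Pieces of 1 cluster often differed in whether the other lines called them. Pieces of at least 5 kb had 78.4% of their bases called in BxPC3 and 67.8% in SUIT2, and pieces under 0.5 kb had 41.0% in BxPC3 and 32.7% in SUIT2. The widest piece of a cluster had 75.7% called in BxPC3 and 64.9% in SUIT2, and the other pieces 64.8% in BxPC3 and 55.2% in SUIT2. Of the 3280 pieces, 1529 (46.6%) were called over at least 50% of their bases in both lines, against 57.3% of the pieces of the remaining Panc327 clusters. Another 557 (17%) reached 50% in BxPC3 only, against 12.3%, and 200 (6.10%) in SUIT2 only, against 6.15%. A further 334 (10.2%) reached it in neither, against 5.93%, and the last 660 (20.1%) had no called base in any BxPC3 or SUIT2 library, against 18.4%. In 304 members (60.8%) one piece was called over at least 90% in BxPC3 while another was called over at most 10%, against 9.34% of all Panc327 clusters. For SUIT2 there were 302 such members (60.4%), against 10% of all clusters. Such a pattern needs at least 2 pieces. Among clusters with 2 or more pieces it was seen for BxPC3 in 61.2% of members, against 27.4% of the remaining clusters, and for SUIT2 in 60.8%, against 30.1%. Those members had a median of 6 pieces and those remaining clusters a median of 2.

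**Figure D4:**
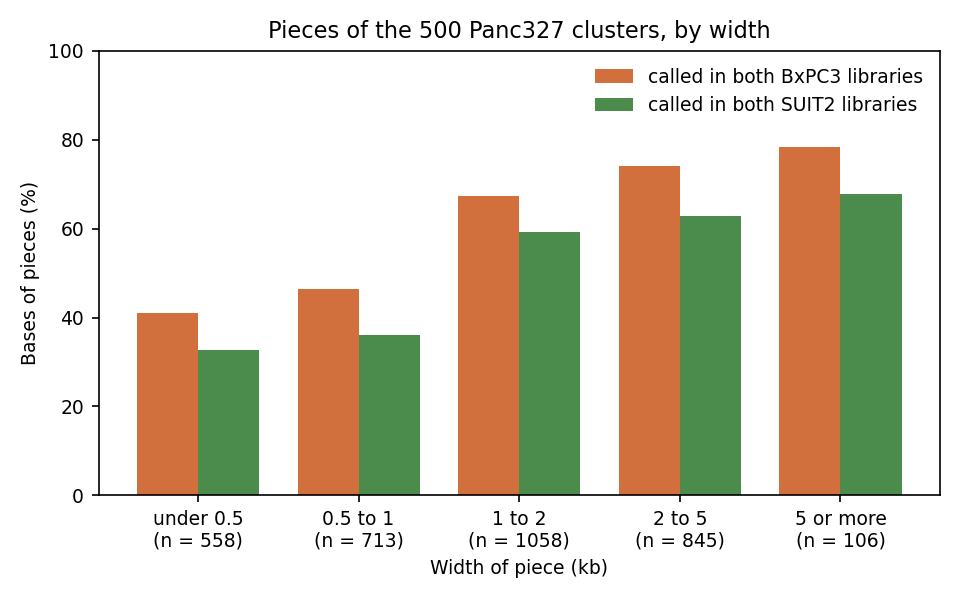
Percent of bases called in both BxPC3 libraries and in both SUIT2 libraries, pooled over the pieces of the 500 Panc327 clusters in 5 width classes (kb), with the number of pieces under each class. The share rises with width, from 41.0 to 78.4% in BxPC3 and from 32.7 to 67.8% in SUIT2, and BxPC3 is higher in every class.

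Clusters marked in Panc327 and hardly at all in the other lines were few. Under 10% of piece bases was called by either line in 3 members (0.6%), where 13.6% of all Panc327 clusters fell under that level. The 3 lie at NKX2-2, TBX1 and NEURL1. The count was 6 when Panc327 was represented by replicate 2 alone and 6 when it was represented by replicate 1 alone. It was 9 with pieces joined at 5 kb, 0 with pieces joined at 25 kb and 5 with ranking by span.

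NKX2-2 is a homeobox factor of pancreatic islet and neural tube development. Its cluster (chr20:21486083-21496215, rank 441) has 2 pieces of 1250 and 5881 bp. Panc327 replicates called 7.26 and 7.15 kb with authors' folds of up to 175 and 36.1, and the 4 other libraries called 0 peaks in the span. In every other member at least 1 of these 4 libraries called a base of the pieces. TBX1 is a T-box factor of pharyngeal development. At TBX1 (chr22:19733041-19749865, rank 498) Panc327 replicates called 9.06 and 6.62 kb, BxPC3 replicate 2 called 0.271 kb, and the remaining 3 libraries called no base. At NEURL1 (chr10:105238334-105273605, rank 409), a ubiquitin ligase gene of the neuralized family, Panc327 replicates called 8.67 and 11.6 kb, BxPC3 replicates none, and SUIT2 replicates 1.33 and 1.29 kb. TBX1 stands at rank 498 of the 500, so its membership rests on few bases.

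Other developmental transcription factors were marked in part in the other lines. PAX6, a paired homeobox factor of eye and islet development (chr11:31831289-31848905, rank 245), had 9.997 and 9.52 kb called in Panc327, none in either BxPC3 library, and 2.24 and 2.25 kb in SUIT2. The SUIT2 calls fell within the first of its 3 pieces. SP9, a zinc finger factor of limb and forebrain (chr2:175189934-175209203, rank 161), had 11.2 and 14 kb in Panc327, 1.07 and 1.46 kb in BxPC3 and 1.64 and 1.62 kb in SUIT2. At the neighbouring homeobox genes DLX1 and DLX2 (rank 132) 37.6% of piece bases was called in BxPC3 and 44.9% in SUIT2. At ZIC2 and ZIC5, zinc finger factors of the neural tube (rank 39), 56.3% was called in BxPC3 and 59.9% in SUIT2. There the 2 widest pieces were called in both lines and the 3 others, up to 3682 bp wide, in neither.

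Of the named members, 3 held HOX genes, which set position along the body axis. Members without a name were not annotated and may hold others. The HOXA cluster (chr7:27169442-27240325, rank 16) reaches from HOXA4 to HOXA13, and its 14 pieces covered 22.9 kb. Of these, 30.9% was called in BxPC3 and 33.5% in SUIT2. Of its pieces, 6 had no base called in both libraries of either line. The HOXC cluster (chr12:54366799-54427873, rank 13) reaches from HOXC11 to HOXC5, with 49.97% called in BxPC3 and 58.3% in SUIT2. HOXD11 to HOXD13 (chr2:176956651-176973313, rank 321) had 8.42 and 9.87 kb called in Panc327, 2.40 and 2.43 kb in BxPC3, and 1.84 and 1.82 kb in SUIT2. LHX1, a LIM homeobox factor of kidney development (chr17:35277414-35307003, rank 354), went the other way for SUIT2. It had 11.4 and 9.53 kb called in Panc327, 3.59 and 3.20 kb in BxPC3 and 12 and 12.1 kb in SUIT2.

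The 10 members with the least coverage by either line also held loci that are not transcription factors. These were SERPINF2 and SERPINF1 (rank 121, 14% in BxPC3 and 6.07% in SUIT2), which encode alpha-2-antiplasmin and PEDF, an inhibitor of blood vessel growth. GPER1, a G protein-coupled oestrogen receptor (rank 489), had 4.24% in BxPC3 and 12.3% in SUIT2. CYGB, the haem protein cytoglobin (rank 131), had 14.4% in BxPC3 and 18.2% in SUIT2. NKPD1 and TRAPPC6A (rank 113) had 20.02% in BxPC3 and 19.6% in SUIT2. A pair of clusters had no name, at chr22:46262098-46315801 and chr6:170462474-170501823. In BxPC3 and SUIT2 these spans held short peaks, such as 2.04 and 2.99 kb in BxPC3 and 0.792 and 0.872 kb in SUIT2 at SERPINF1, where Panc327 had 13.2 and 13.4 kb.

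Clusters that BxPC3 covered and SUIT2 did not were more frequent among members than the reverse. The BxPC3 share was at least 50 points above the SUIT2 share in 36 members (7.2%), against 9.12% of all Panc327 clusters. The SUIT2 share was at least 50 points above the BxPC3 share in 4 (0.8%), against 4.15% of all clusters. Both shares lie under their background.

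Of the 36, 12 carry a gene name, given after their values were seen, and 24 do not. MIR205HG, the host gene of miR-205 (chr1:209571209-209609118, rank 179), had 10.7 and 25.9 kb called in Panc327, 23.4 and 26.5 kb in BxPC3 and none in either SUIT2 library. In the Panc327 lists the local background of this span stood at 2.72 and 2.94 times its genome-wide value, and its part in the result was not tested. TRIM29, a marker of squamous epithelia (chr11:119992233-120017819, rank 373), had 8.18 and 10.7 kb in Panc327, 13 and 12.4 kb in BxPC3 and none in SUIT2. TNS4, a focal adhesion protein (chr17:38642015-38658212, rank 426), had 8.77 and 11.1 kb in Panc327, 15.9 and 16 kb in BxPC3 and none in SUIT2. These 3 were picked for a low SUIT2 share, so the gap is a description.

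Further named clusters of the 36 were ADGRG1, an adhesion receptor (88.7% in BxPC3 and 0% in SUIT2), EPPK1, a plakin family cytolinker (85.6% in BxPC3 and 0% in SUIT2), and WNT10A, a Wnt ligand (93.8% in BxPC3 and 3.53% in SUIT2). ZNF750, an epidermal differentiation factor, had 78.0% in BxPC3 and 6.81% in SUIT2. PKP1, a desmosomal plakophilin, had 61.3% in BxPC3 and 8.31% in SUIT2. KRT7, a keratin of simple and ductal epithelia, had 93.6% in BxPC3 and 34.1% in SUIT2, with FAM83H, GPC1 and PLEKHG3 as the other named loci. FGFR3, a fibroblast growth factor receptor (chr4:1748323-1796998, rank 21), fell just short of the margin. It had 33.7 and 21.5 kb called in Panc327, 15.2 and 16.1 kb in BxPC3, and 1.82 and 1.94 kb in SUIT2. LITAF (rank 38) had 57.3% in BxPC3 and 9.0% in SUIT2.

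The 4 clusters in the opposite direction were LHX1 (33.3% in BxPC3 and 84.0% in SUIT2), SDF2L1, and 2 without a name at chr21:43089052-43106128 (0% in BxPC3 and 68.3% in SUIT2) and chr22:38172708-38183159 (9.84% in BxPC3 and 75.1% in SUIT2). At LHX1 the Panc327 local background stood at 2.03 and 2.11 times its genome-wide value, and its part in the result was not tested.

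Coverage of other epithelial loci varied, and was lowest at SFN in SUIT2 among those given here. KRT19 and KRT15 (rank 167), of which KRT19 marks pancreatic duct cells, had 92.8% in BxPC3 and 86.4% in SUIT2. KRT17, a keratin of basal and stressed epithelia (rank 29), had 91.8% in BxPC3 and 59.9% in SUIT2. CDH1, the epithelial cadherin (rank 374), had 8.37 and 11.1 kb called in Panc327, 8.34 and 9.86 kb in BxPC3 and 7.73 and 7.66 kb in SUIT2. SFN, the epithelial 14-3-3 protein (rank 92), had 74.4% in BxPC3 and 29.2% in SUIT2. Of the named members, 3 on chromosome 1 held calcium-binding S100 genes, at S100A6, at S100A2 and at S100A16 with S100A14. They were called over 75.1 to 100% in BxPC3 and 76.3 to 87.1% in SUIT2. Of the marker genes written down to check the cell type, the named members held CDH1 and KRT19 of the epithelial list, KRT17 and S100A2 of the basal-like list and PAX6 and NKX2-2 of the endocrine list. The other genes of these lists, and all genes of the classical and mesenchymal lists, carry no name here. Names were given after the clusters were seen, so a listed gene without a name may still lie in a member. The full lists could not be counted without an hg19 annotation, so the label was not tested against them.

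Of the named members, 5 lay among the histone genes of chromosome 6, which encode the replication-dependent histones. The one at H4C5 and H4C6 (rank 32) had 38.3% of piece bases called in BxPC3 and 75.6% in SUIT2. In the 4 others, at H4C11, H1-1, H2BC12 and H1-5, 77.2 to 91.7% was called in BxPC3 and 61.0 to 83.8% in SUIT2. The histone gene copies are close to identical in part. How the authors' alignment placed reads among them is not given in the sources used here, and its part in these calls was not tested.

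In the most completely shared members every piece base, or nearly so, was called in both other lines. BCL9L, a coactivator of beta-catenin (chr11:118779734-118801039, rank 40), was called over 18.4 and 19.8 kb in Panc327, 20.4 and 20.4 kb in BxPC3 and 20.5 and 21.3 kb in SUIT2, and 100% of its piece bases were called in each line. SCNN1A, the alpha subunit of the epithelial sodium channel, and LTBR, the lymphotoxin beta receptor, share a cluster (rank 135) with 100% in each line as well. PYGO2 with SHC1 and CKS1B, MTA2 with B3GAT3, and HSPA1A with HSPA1B complete the 5 members of at least 20 kb span with the highest shared coverage. CDKN1B (rank 400) also had 100% in each line, on a shorter span of 12 kb.

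At the microRNA loci whose sequences are given above, miR-205's host stood with Panc327 and BxPC3, and the others were marked in all 3 lines. At MIR21 (chr17:57904698-57925804, rank 353), BxPC3 replicates called 15.3 and 16.2 kb and SUIT2 replicates 21.1 and 21.1 kb, where a single peak filled the span. At MIR181C (chr19:13950748-13993141, rank 17), the libraries called 24.6 and 24.1 kb in Panc327, 16.8 and 17.5 kb in BxPC3 and 18.8 and 18.9 kb in SUIT2. Peaks mark chromatin and do not measure the microRNAs.

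The members were also set beside the top 500 clusters of the other lines. Of the 500 members, 231 (46.2%) shared span with a top 500 cluster of BxPC3, against 4.4% of all Panc327 clusters. Counted from the BxPC3 list, 229 of its clusters (45.8%) met a member. With a top 500 cluster of SUIT2, 147 members (29.4%) shared span, against 4.05% of all clusters. Counted from the SUIT2 list, 143 of its clusters (28.6%) met a member. Both lists met 117 members (23.4%), against 1.6% of all clusters, and 239 members (47.8%) met neither list, against 93.2%. The members have the wider spans, and the part of span width in these counts was not tested. The widest clusters of the other lines were larger and denser. Median covered bases were 9.11 kb in Panc327, 12.9 kb in BxPC3 and 19 kb in SUIT2, and the median filled share of the span was 32.2% in Panc327, 40.7% in BxPC3 and 55.8% in SUIT2. The median widest piece was 3482.5 bp in Panc327, 5198 bp in BxPC3 and 8936 bp in SUIT2.

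The members were unevenly spread over the chromosomes. Chromosome 19 held 86 of them, chromosome 17 held 68, chromosome 1 held 52, chromosome 16 held 42, chromosome 11 held 34 and chromosome 22 held 29. Chromosomes 16, 17, 19 and 22, which are short and gene-dense, together held 225 members (45%), against 18% of all Panc327 clusters. In the top 500 of BxPC3 these chromosomes held 22%, against 14.1% of all its clusters, and in that of SUIT2 they held 18%, against 14.9%. The share was 46.4% with Panc327 replicate 1 alone and 32.4% with replicate 2 alone. Single libraries of the other lines gave 21.6 and 22.2% in BxPC3 and 18.2 and 18.6% in SUIT2. With clusters ranked by their widest piece the share was 38% in Panc327, 16% in BxPC3 and 15% in SUIT2. These chromosomes were singled out after their values were seen.

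**Figure D5:**
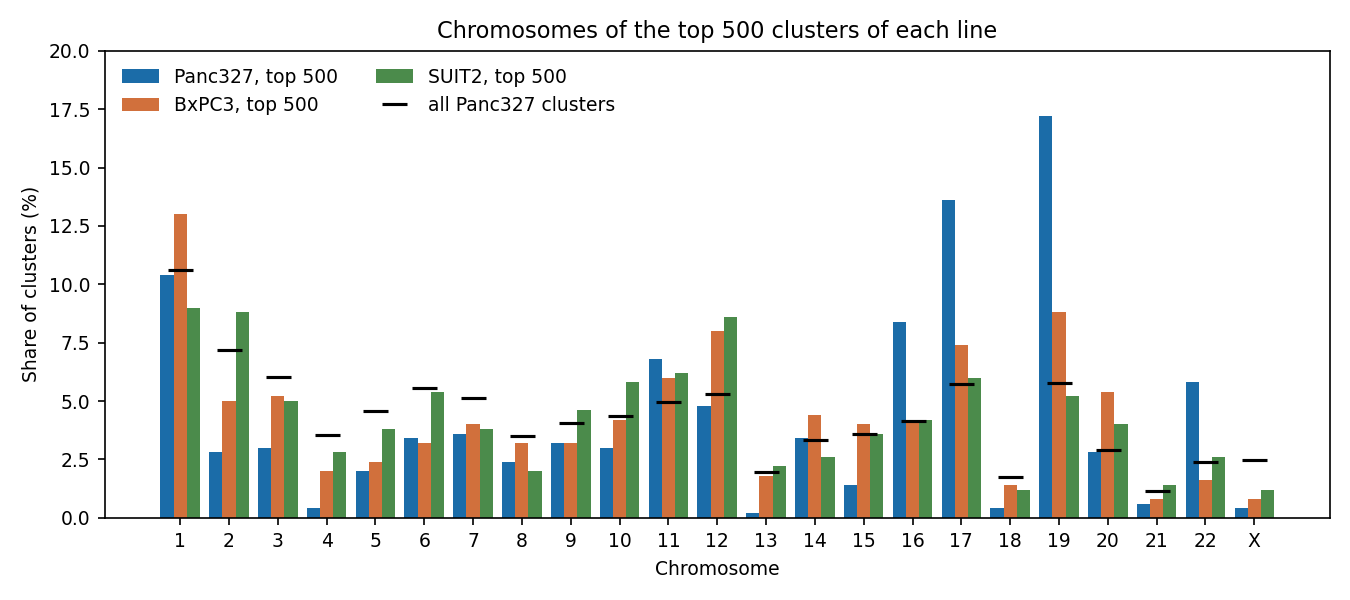
Percent of the top 500 clusters of Panc327, BxPC3 and SUIT2 on each chromosome (bars), with the percent of all Panc327 clusters as black dashes. Panc327 bars stand above the dashes and above both other lines on chromosomes 16, 17, 19 and 22; on chromosome 19 the Panc327 share is 17.2% and the share of all its clusters 5.75%.

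The local background used in peak calling could be recovered from the authors' fold and −log10 p for each peak. In 22 of 847 windows of 2 Mb it reached 2 times the genome-wide level or more in both Panc327 libraries. Such windows held 21 members (4.2%), against 2.76% of all Panc327 clusters. Of these, 12 lay on chromosome 19, among them ACTN4 at 4.46 and 4.74 times that level and FXYD3 at 2.04 and 2.35 times, and 5 on chromosome 17, among them SREBF1 at 2.16 and 2.62 times. These members covered a median of 12074 bases, against 9012 in the other members, and were called over a median of 76.8% in BxPC3 and 62.9% in SUIT2, against 72.9% in BxPC3 and 63.4% in SUIT2 in the other members. Without the windows the top 500 had 43.0% of clusters on chromosomes 16, 17, 19 and 22. What raised the background in these windows was not tested.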

How the data were processed

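The labels' protocols describe crosslinked and sonicated chromatin, an H3K27ac antibody and KAPA HyperPrep libraries. The submitters' processing notes name Bowtie 1.1.1, MACS2 and bcl2fastq 1.8.4, and the genome as hg19. The version of MACS2 and its settings are not given in the sources used here. Peaks had been called per library, with 1 deposited list for every H3K27ac library. The fold of a peak, as deposited, is the authors' ratio of ChIP to local background. Its −log10 p-value was deposited by the authors too, as was its −log10 q-value. The score, also deposited, follows from the −log10 p and was not used. Folds and −log10 q were set side by side between libraries only to describe them. Total read numbers are not given in the lists, so depth is known only through the number of peaks, 27776 to 38335 per list.

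Intervals were intersected, joined and counted base by base in Python 3.11.15 with pandas 2.3.3, numpy 2.4.6 and scipy 1.17.1, and figures were drawn with matplotlib 3.10.9. A base counted for a line when both its libraries called it. The authors' fold and −log10 p, taken as a Poisson tail, were solved for the local background. The tolerance was 0.001 and was widened in proportion to −log10 p at high values. The lowest background solved in a library stood for its genome-wide level. The interval code and the solver were tested on simulated data. Clusters named one by one were the 20 with the most covered bases, the 10 least covered by either other line, the 5 most covered by both with a span of at least 20 kb, and those at the threshold. Further clusters that carry a well-known gene were named after their values were seen. The planned gene lists and promoter counts need an hg19 annotation and were not made. The members and lists were chosen with earlier results of these data known. The alternatives tried were other joining distances, ranking by span, stricter or equal numbers of peaks, pieces of at least 200 bp, other coverage rules, leaving out raised windows, and leaving out each library.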

Additional observations from a re-analysis of the deposited data

How the results depend on the processing

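Under 18 alternatives, 82 of 103 recomputed values stayed within 1.5 times a count or within 1 SD of a median, or kept the direction of a difference. Members with at least 50% of bases called numbered 412 in BxPC3 and 328 in SUIT2, and at a limit of 80% they numbered 187 and 144. The median shares, 72.9% in BxPC3 and 63.3% in SUIT2, became 78.2 and 67.8% with pieces joined at 5 kb, 70.8 and 62.3% with ranking by span, 75.9 and 65.8% with −log10 q of at least 20, and 78.3 and 65.8% when either library of the other line sufficed. Leaving out 1 library at a time gave 61.6 to 77.4% for BxPC3 and 50.3 to 65.0% for SUIT2, with the lowest values when Panc327 rested on replicate 1 alone. The count of members under 10% in either line, 3, became 9 at 5 kb, 0 at 25 kb and 5 by span, and ran from 3 to 6 with 1 library left out. The cause of these shifts was not tested. Counts of members shared with the top 500 of the other lines stayed within 1.5 times of 231 and 147 in every alternative run. With the replicate number as a block, an alternative chosen after seeing the data, the BxPC3 minus SUIT2 difference was 10.9 points as without it, at p = 0.5 in an exact two-sided test over 4 sign patterns, the smallest that 2 pairs allow. The 2 lines' differences between replicates correlated at 0.02 over the 500 clusters, and the samples share only a number. Peak lists give no read depth, so a base not called may lie just under the calling limit.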
